A study of Mus musculus with 27 samples.

Results

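The genes described are 10 members of the TGF-beta, activin and myostatin system: the ligands Tgfb1, Tgfb2 and Tgfb3, the receptors Tgfbr1 and Tgfbr2, the latency-related protein gene Ltbp2, the activin subunit Inhba, the activin and myostatin antagonists Fst and Fstl3, and myostatin, Mstn. They were chosen by gene name, with earlier results of these data known. All 10 were found once in each of the 2 deposited expression matrices, which held 55852 and 55677 entries. RNA was sequenced from muscle of male mice after injection of cardiotoxin (CTX), a venom toxin that destroys myofibres, after which muscle regenerates. Injured muscle gave 24 libraries, 3 from WT (C57BL/6J) mice and 3 from mice whose titles say KO for Gsdme, the gene of the pore-forming protein gasdermin E, at each of day 1, 4, 7 and 14 after injection (written D1, D4, D7, D14). A further 3 libraries were of WT control muscle without injury. The study states that WT C57BL/6J mice were bought, and also that heterozygotes were crossed to give KO and WT littermates. It does not say which WT mice were sequenced, so a difference of colony between KO and WT cannot be told apart. The study describes the KO as global and gives no age. It took the control from the contralateral leg, so that control and WT D1 libraries may share mice. The samples titled KO carry the word knockdown in their genotype field, and the deposited description names thigh muscle where the study names the gastrocnemius. KO below means the libraries with KO in their title.

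TGF-beta ligands are secreted bound to a latency peptide and are held in the extracellular matrix by latent TGF-beta binding proteins until they are released. The released ligand binds TGFBR2, which recruits and phosphorylates TGFBR1, and TGFBR1 phosphorylates SMAD2 and SMAD3. Activin A, a dimer of Inhba products, and myostatin signal to the same SMADs through activin receptors, and follistatin (Fst) and follistatin-like 3 (Fstl3) bind both ligands and block them. In skeletal muscle myostatin is made by myofibres and limits muscle growth, while TGF-beta made by macrophages and other cells is known for its part in matrix deposition and fibrosis.

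The stretch of 250 bases before the annotated start is shown for 3 ligands whose levels followed different courses below: Tgfb1, highest in the first days, Tgfb2, highest in WT muscle on D7, and Mstn, lowest in WT muscle on D4. They are RefSeq sequences of build GRCm38.p6, the assembly that mm10 stands for, written 5′ to 3′ on the strand of the gene, and capitals mark each match of CANNTG, the E-box to which MyoD and other helix-loop-helix factors can bind. They lie at chr7:25686752-25687001 (plus strand, Tgfb1), chr1:186705990-186706239 (minus strand, Tgfb2) and chr1:53061390-53061639 (plus strand, Mstn).
Tgfb1: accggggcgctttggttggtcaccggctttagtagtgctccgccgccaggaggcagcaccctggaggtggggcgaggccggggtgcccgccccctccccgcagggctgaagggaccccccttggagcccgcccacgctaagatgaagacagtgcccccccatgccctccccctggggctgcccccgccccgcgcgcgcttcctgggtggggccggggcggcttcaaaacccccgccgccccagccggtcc
Tgfb2: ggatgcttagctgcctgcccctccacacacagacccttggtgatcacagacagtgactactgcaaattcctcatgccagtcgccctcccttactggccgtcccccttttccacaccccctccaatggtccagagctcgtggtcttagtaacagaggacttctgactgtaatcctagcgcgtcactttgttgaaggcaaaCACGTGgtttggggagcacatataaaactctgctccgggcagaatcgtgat
Mstn: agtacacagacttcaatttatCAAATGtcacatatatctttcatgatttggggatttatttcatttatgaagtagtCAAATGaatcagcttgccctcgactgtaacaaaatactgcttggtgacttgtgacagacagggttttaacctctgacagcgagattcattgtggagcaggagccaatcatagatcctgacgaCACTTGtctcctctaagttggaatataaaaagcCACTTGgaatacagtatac
The Mstn stretch held 4 E-boxes, the Tgfb2 stretch 1 and the Tgfb1 stretch 0. An E-box was found in 66.2% of the 32851 promoters of this length, so its presence alone sets no gene apart. TATAAA, the letters of a core promoter element, lay 29 bases before the start of Mstn and 31 bases before that of Tgfb2 and was not found in the Tgfb1 stretch, against 12.4% of all promoters with a match. GC content was 38.4% for Mstn, 53.6% for Tgfb2 and 75.2% for Tgfb1, where the median promoter had 52.4%. Both strands were searched for all motifs. Of the other letters searched, CAGAC, to which SMAD3 and SMAD4 can bind, was found 2 times before Mstn, 2 times before Tgfb2 and 0 times before Tgfb1 (42.2% of all promoters held it). TGANTCA, an AP-1 site, was found 1 time before Mstn and 0 times before the other two (6.75% of all). A match describes these letters only. Among the 10 genes, 8 matched the promoter table, and Tgfb3 and Fst did not.

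Values are TPM, a measure of abundance scaled for transcript length, which can be set side by side between genes. Total read numbers were not in the files, and the precision from counting is unknown. Before the results, some libraries stood apart. The summed TPM of 9 macrophage and leukocyte markers was between 764.5 and 3599 in WT D1 and between 375.4 and 3258 in KO D4, and the lowest value in each group belonged to WT D1 replicate 3 and KO D4 replicate 2. The same 2 libraries had the highest sum of 10 mature myofibre markers of their groups, 175530 and 143580 TPM, and all 10 myofibre markers were at 1 TPM or more in both, as muscle should have. In KO D7, replicate 2 stood apart in the same way, with 395.6 TPM of leukocyte markers against 1037 and 1064. Gsdme had a mean of 3.59, 2.77, 2.15 and 1.98 TPM in WT on D1, D4, D7 and D14 and of 1.66, 1.33, 1.11 and 1.67 TPM in KO, and the groups overlapped on D14 alone.

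Per-length levels differed widely between the members. Tgfb3 and Tgfbr2 reached the highest levels, 99.8 and 82.5 TPM in single WT D4 libraries, together with Tgfb1 at 99.7 TPM. Inhba had the lowest levels, between 0.16 and 2.74 TPM in the 24 injured libraries, so that its differences rest on very low values. Group means of the injured libraries lay between 5.21 and 9.66 TPM for Fst and between 3.62 and 8.08 TPM for Tgfb2, the narrowest ranges in ratio, and between 1.73 and 35.7 TPM for Ltbp2, the widest.

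**Figure D1:**
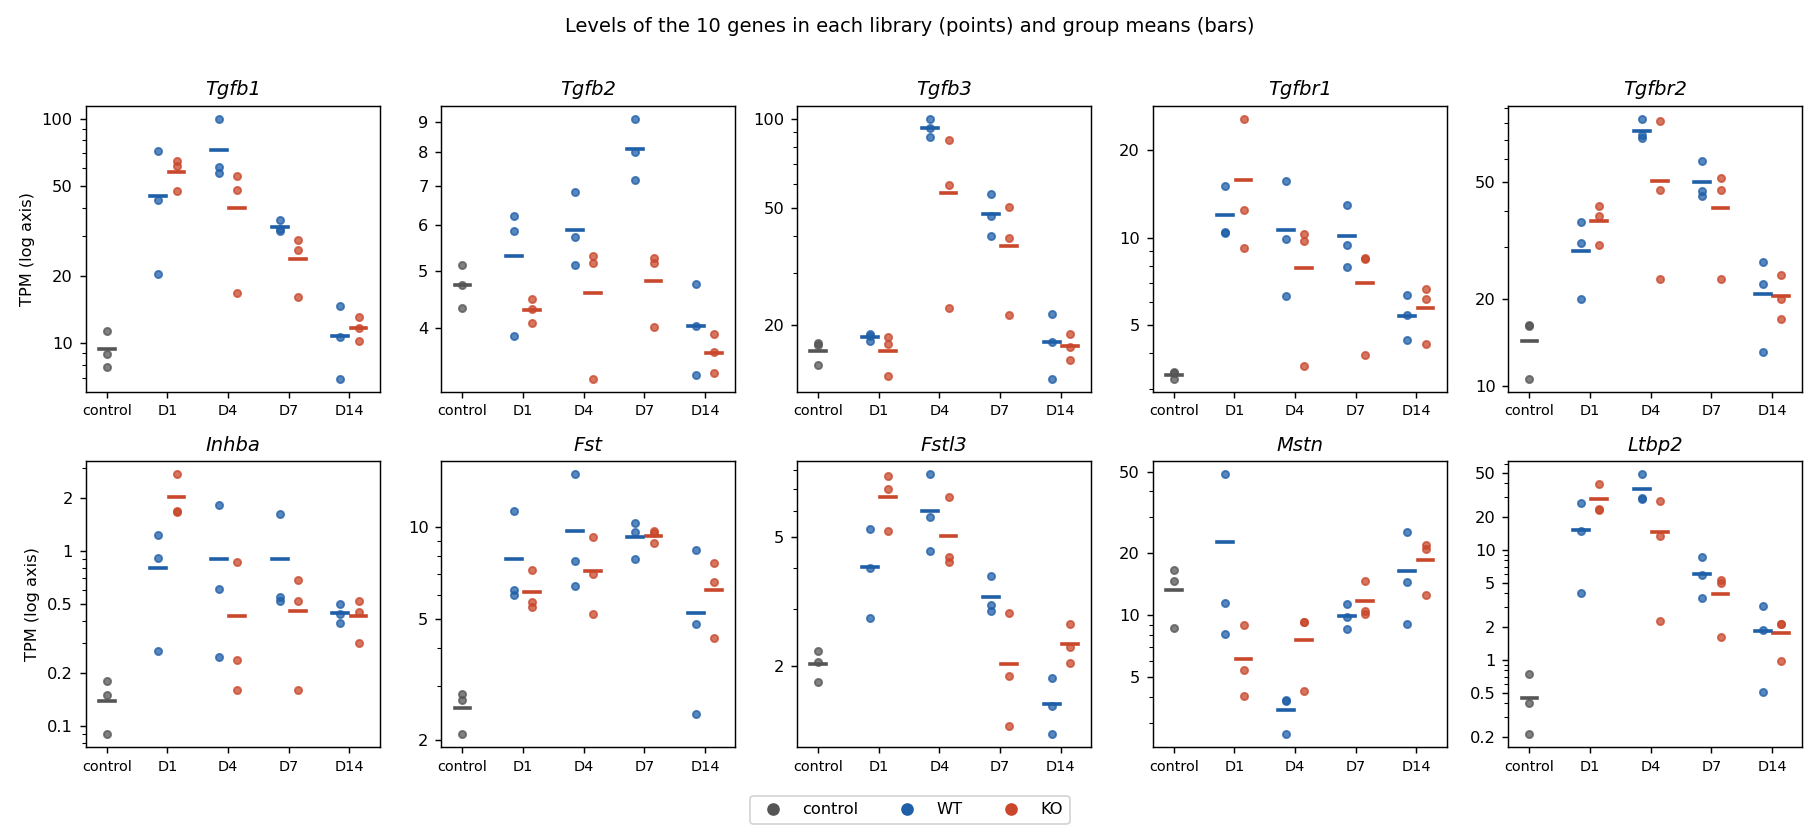
TPM of the 10 genes in each library (points, log axis with its own range in each panel) in control muscle and on D1, D4, D7 and D14, with WT in blue, KO in red, control in grey and bars for the group means of 3 libraries. Tgfb1 and Ltbp2 were high on D1 and D4, Tgfb3 was at 86.4 TPM or more in every WT D4 library, and Mstn was at 3.87 TPM or less in those libraries.

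The first comparison was of WT muscle 1 day after CTX with control muscle, and asks how injury moved these genes. Of the 9 members that passed the filter of 1 TPM in 3 libraries of that matrix, 6 were called higher by limma at a Benjamini-Hochberg adjusted p under 0.05 and 0 lower. Across all genes tested 55.4% were called higher, and the median difference of all genes was 0.66 on the log2(TPM + 1) scale, so a share of 6 in 9 is near that of the transcriptome. With libraries scaled by median-of-ratios size factors, which moved that median to 0.0018, 2770 genes were called higher and 2763 lower in place of 7229 and 736, and 5 members were called, Tgfb1, Tgfbr1, Fst and Ltbp2 higher and Tgfb3 lower. The comparison was fitted unpaired, since no source says which control leg belongs to which injured one, and with the replicate number as a block Fstl3 lost its call (adjusted p = 0.0659) and the other 5 calls were kept. The control libraries and D1 libraries of 8 of the 10 members did not overlap, all of them higher on D1, against 64.2% of the genes tested. The 8 include Inhba, which did not pass the filter and so is not among the genes of that share. The study sequenced a batch with injured and control muscle and another with the time course, and the labels give no batch, so what a batch adds to this comparison cannot be told apart.

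Among the ligands, Tgfb1, made by macrophages and many other cells, was at 8.95, 7.86 and 11.4 TPM in control muscle and at 43.6, 71.7 and 20.3 TPM in WT D1. Every D1 library was above every control library, and the lowest D1 value was that of replicate 3. The difference was 2.00 on the log2 scale (SE 0.40, adjusted p = 0.00454). Tgfb2 was at 4.73, 4.33 and 5.12 TPM in control and at 4.28, 6.46 and 6.36 TPM on D1 in the same matrix, and the groups overlapped (log2 difference 0.21, SE 0.22, adjusted p = 0.414). Tgfb3 was at 17.4, 14.7 and 17.2 TPM in control and at 18.7, 18.4 and 17.7 TPM on D1. These groups touched without overlap, and the difference of 0.15 (SE 0.16) had an adjusted p of 0.444. Under that scaling the Tgfb2 and Tgfb3 differences turned to -0.45 and -0.60, and Tgfb3 was then called lower (adjusted p = 0.0170).

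Both TGF-beta receptors were called higher. Tgfbr1, the type I receptor kinase, was at 3.26, 3.44 and 3.41 TPM in control and at 10.4, 15.1 and 10.4 TPM on D1, a log2 difference of 1.55 (SE 0.21, adjusted p = 0.00168). Tgfbr2, the ligand-binding type II receptor, went from a mean of 14.3 ± 3.2 TPM (SD, n = 3) to 29.3 ± 8.5 TPM (SD, n = 3), a difference of 0.97 (SE 0.26, adjusted p = 0.0143). The Tgfbr2 call was lost in 3 of 11 alternatives, among them the median-of-ratios scaling with a difference of 0.21.

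Ltbp2, a matrix protein of the latent TGF-beta binding protein family that itself binds fibrillin rather than latent TGF-beta, had the highest fold of the 10 genes. It was at 0.40, 0.21 and 0.74 TPM in control and at 14.9, 26.4 and 4.09 TPM on D1. The group means differed 33.6-fold, and on the log2 scale the difference was 3.18 (SE 0.54, adjusted p = 0.00272). Ltbp2 passed the filter through the D1 libraries alone, so a difference was built into its being tested. Its call, counted above among the members called higher, is therefore no support.

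Both antagonists were called higher as well. Fst was at 2.09, 2.84 and 2.70 TPM in control and at 6.23, 11.3 and 6.0 TPM on D1 (log2 difference 1.27, SE 0.27, adjusted p = 0.00519). Fstl3 was at 2.06, 1.78 and 2.22 TPM in control and at 3.99, 5.27 and 2.80 TPM on D1 (log2 difference 0.71, SE 0.24, adjusted p = 0.0308). The Fstl3 difference was close to the median of all genes and its call was lost in 8 of 11 alternatives. The calls of Tgfb1, Tgfbr1 and Fst were kept in all 11. So was that of Ltbp2, which is no support, since Ltbp2 was tested through its D1 libraries alone.

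Inhba did not pass the filter in that matrix. It was at 0.18, 0.09 and 0.15 TPM in control and at 0.91, 1.23 and 0.27 TPM on D1, all higher, and without a filter its log2 difference was 0.62 (SE 0.21, adjusted p = 0.0761). Mstn was at 8.72, 16.5 and 14.6 TPM in control and at 11.5, 8.11 and 48.5 TPM on D1. A single library, WT D1 replicate 3, carried the higher D1 mean, and the groups overlapped (log2 difference 0.36, SE 0.57, adjusted p = 0.595). Without that library the Mstn difference was -0.38.

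Markers of other cells moved with this comparison. All 9 macrophage and leukocyte markers were called higher on D1 (summed level 131.8 to 171.4 TPM in control), of which 2 were under 1 TPM in every control library and so could be tested through D1 alone. The mature myofibre sum was between 170950 and 186070 TPM in control and between 86088 and 176730 TPM on D1. Of its 10 markers 3 were called lower, where 5.64% of all genes were, and 6 with median-of-ratios scaling. In muscle tissue a change in the share of a cell type and a change in RNA per cell cannot be told apart, and the part of either in the members' values was not tested. The plot of levels beside marker sums shows both.

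**Figure D2:**
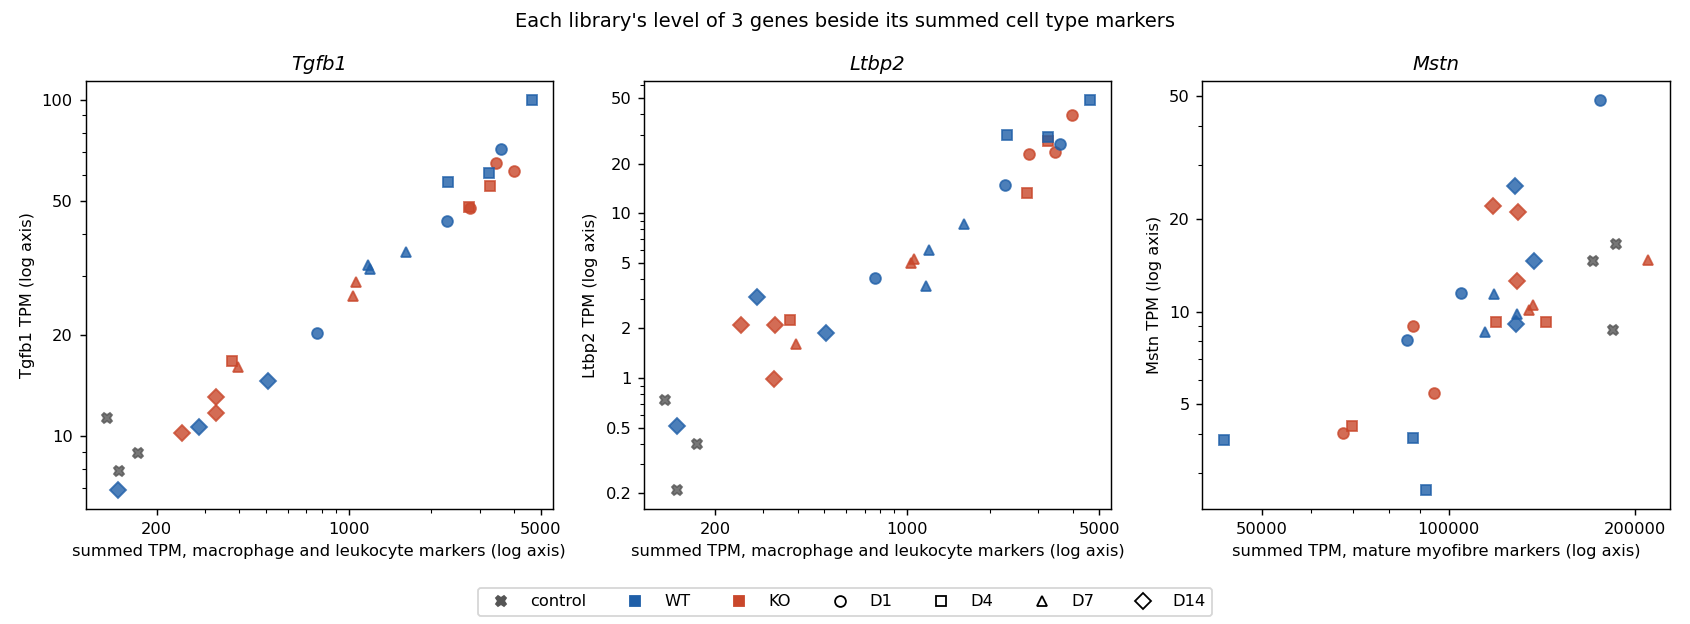
Levels (TPM, log axis) of Tgfb1 and Ltbp2 against the summed TPM of 9 macrophage and leukocyte markers, and of Mstn against the summed TPM of 10 mature myofibre markers (log axes), with 1 point per library, colours for control, WT and KO and shapes for the day. KO D4 replicate 2 lies at 375.4 TPM of leukocyte markers with 16.8 TPM of Tgfb1, far below the other D4 libraries, and WT D1 replicate 3 has the highest Mstn, 48.4 TPM.

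Between D1 and D4 of WT muscle, the members moved in different directions. Tgfb3, the third TGF-beta ligand, was at 18.7, 18.4 and 17.8 TPM on D1 and at 99.8, 86.4 and 93.3 TPM on D4. No D4 value came near a D1 value, and the log2 difference of 2.29 (SE 0.34, adjusted p = 0.000181) kept its call in all 12 alternatives. The Tgfb3 locus on chromosome 12 (86056745 to 86079041, minus strand, mm10) overlaps Ttll5 on the other strand, and the use of strand in counting is not given in the sources used here. Ttll5 had means of 3.65 and 9.44 TPM in the same groups, below those of Tgfb3 on both days, and reads of the pair may not have been told apart. Tgfbr2 was at 31.1, 36.6 and 20.0 TPM on D1 and at 82.5, 70.7 and 72.7 TPM on D4, a difference of 1.37 (SE 0.36, adjusted p = 0.0101), and this call was lost without WT D1 replicate 3 (adjusted p = 0.0639). Among all genes 14.6% were called higher at this step, against 2 of the 10 members. Median-of-ratios scaling, which turned the split of all calls from 2292 higher and 828 lower to 1822 and 2094, kept the calls of Tgfb3, Tgfbr2 and Mstn.

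Mstn fell over the same days. It was at 11.5, 8.10 and 48.4 TPM on D1 and at 3.82, 3.87 and 2.64 TPM on D4 in WT. Every D4 library was lower than every D1 library, as for 7.39% of all genes. The log2 difference was -2.01 (SE 0.47, adjusted p = 0.00505), and over the alternatives it lay between -2.50 and -1.28. The call was lost where the 2 groups compared were fitted alone (adjusted p = 0.119) and was kept without WT D1 replicate 3. Across all genes 5.27% were called lower, against 1 of 10 members. The mature myofibre sum was between 43332 and 92071 TPM in WT D4, with 5 of 10 markers called lower than on D1, and its part in the Mstn value was not tested.

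The other 7 members were not called at this step in WT. Ltbp2 was at 14.9, 26.4 and 4.06 TPM on D1 and at 48.3, 29.1 and 29.7 TPM on D4, all higher, with an adjusted p of 0.124 for a difference of 1.46 (SE 0.65), and with Tgfb3 and Tgfbr2 made 3 of 10 members where 22.1% of all genes were. Tgfb1 was at its highest in WT D4, with 99.7, 60.9 and 57.2 TPM, and overlapped with D1. Mean Fst was 9.66 ± 4.56 TPM (SD, n = 3) in WT D4 and 7.82 ± 2.99 TPM (SD, n = 3) in WT D1, and the groups overlapped.

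In KO muscle, Tgfb3 rose between D1 and D4 too, from 18.3, 17.3 and 13.5 TPM to 85.0, 23.0 and 59.9 TPM. The D4 libraries were spread 3.70-fold, with replicate 2 lowest, and all 3 lay above D1, as for 10.9% of all genes (log2 difference 1.54, SE 0.34, adjusted p = 0.00475). This call was 1 of 10 members, where 7.18% of all genes were called higher. Inhba fell from 2.74, 1.70 and 1.68 TPM to 0.87, 0.16 and 0.24 TPM (log2 difference -1.11, SE 0.29, adjusted p = 0.0141), again 1 of 10 members against 12.2% of all genes called lower. The Inhba call was lost without KO D1 replicate 1, without KO D4 replicate 2 and in the fit of those 2 groups alone, where the Tgfb3 call was lost as well. At the same step in KO, 5 of 9 leukocyte markers (list median -2.19) and 4 of 5 neutrophil markers tested (-4.10) were called lower and 3 of 8 satellite cell and myoblast markers higher, and their part in these values was not tested. Tgfbr2 and Mstn, called in WT, had adjusted p-values of 0.582 and 0.719 at this step in KO, and whether the genotypes differed in this step is taken up below.

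From D4 to D7 in WT, 1 member was called. Ltbp2 went from 48.3, 29.1 and 29.7 TPM to 8.66, 5.94 and 3.61 TPM, without overlap, and was lower (log2 difference -2.40, SE 0.65, adjusted p = 0.0260), where 9.31% of all genes were called lower. Its call was lost without WT D4 replicate 1, WT D7 replicate 2 or WT D7 replicate 3. With median-of-ratios scaling, under which 928 genes were called higher and 918 lower in place of 478 and 1463, Ltbp2 was called lower and Tgfb2 higher. Tgfb1, Tgfb3, Tgfbr2 and Fstl3 were also lower in every D7 library than in every D4 library, with adjusted p-values of 0.0841, 0.0620, 0.256 and 0.0539, which with Ltbp2 made 5 of 10 members where 33.2% of all genes were. Mstn was higher in every D7 library, at 8.60, 9.79 and 11.4 TPM (adjusted p = 0.0708), as was Tgfb2, at 9.10, 8.0 and 7.15 TPM against 5.72, 5.12 and 6.82 TPM on D4 (adjusted p = 0.128), 2 of 10 members where 9.52% of all genes were. All 9 leukocyte markers had a lower fitted mean on D7 (list median -1.33, 0 called). Of the satellite cell and myoblast markers 4 of 8 were called lower, and 1 of 10 myofibre markers was called higher (3.04% of all genes). The part of these markers' cells in the members' values was not tested. The highest WT mean of Tgfb2 was on D7, that of Tgfb1 and Tgfb3 on D4. For Tgfb2 neither D4 and D7 nor D4 and D1 differed past the threshold.

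In KO, 0 members were called between D4 and D7, where limma called 0% of all genes. At an unadjusted p under 0.05 there was 1 member, Fstl3 (log2 difference -1.01, SE 0.23, adjusted p = 0.149), where 9.89% of all genes passed that threshold. Fstl3 was at 6.61, 4.18 and 4.31 TPM on D4 and at 2.91, 1.30 and 1.86 TPM on D7, the 1 member with every D7 library lower (6.45% of all genes). Mstn was the 1 member with every D7 library higher (2.43% of all genes), as in WT. It went from 4.26, 9.25 and 9.24 TPM to 10.14, 14.65 and 10.46 TPM (log2 difference 0.62, SE 0.47, adjusted p = 0.670). Without KO D4 replicate 2, 3 members were called lower at this step, Tgfb3, Fstl3 and Ltbp2. In that fit 1375 of 15718 genes were called in either direction, and the median difference of all genes was -0.30.

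From D7 to D14 in WT, limma called 5 of 10 members lower and 0 higher, against 30.9% of all genes called lower and a median of all genes of -0.45. At the same step 7 of 9 leukocyte markers (list median -1.95) and 5 of 8 satellite cell and myoblast markers (-2.25) were called lower (4 of each with median-of-ratios scaling), and their part in the members' values was not tested. Tgfb1 went from 35.4, 31.6 and 32.3 TPM to 10.7, 14.6 and 6.94 TPM (log2 difference -1.59, SE 0.41, adjusted p = 0.0123). Its D14 values overlapped those of control muscle, which come from another matrix and were not tested against D14. Tgfb2 fell by 0.86 (SE 0.18, adjusted p = 0.00662), to 4.75, 4.03 and 3.32 TPM. Tgfb3 fell by 1.40 (SE 0.34, adjusted p = 0.00983), to 17.5, 21.9 and 13.2 TPM, beside 17.4, 14.7 and 17.2 TPM in control.

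Tgfbr2 fell by 1.29 between D7 and D14 (SE 0.36, adjusted p = 0.0159), from 59.3, 45.0 and 46.7 TPM to 22.4, 26.6 and 13.1 TPM. Fstl3 fell by 0.76 (SE 0.23, adjusted p = 0.0220), from 3.77, 3.07 and 2.95 TPM to 1.5, 1.83 and 1.23 TPM. Every D14 library was below every D7 library for 8 of 10 members, these 2 among them, as for 58.9% of all genes. All 5 calls were lost without WT D14 replicate 3, the D14 library with the least leukocyte marker RNA (145.3 TPM against 285.1 and 507.8), and 1, that of Tgfb2, was left without WT D7 replicate 1. With median-of-ratios scaling, under which 802 genes were called higher and 1348 lower in place of 145 and 4855, 2 calls were left, those of Tgfb1 and Tgfb3.

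The KO libraries had 0 members called between D7 and D14, where 0.560% of all genes were called (13 higher and 75 lower, or 128 and 309 with median-of-ratios scaling, which called 0 members too). At an unadjusted p under 0.05 there were 3 members, Tgfb1, Tgfb3 and Tgfbr2, with log2 differences of -0.93, -1.01 and -0.90, against 19.3% of all genes. Tgfb1 was at 28.9, 16.1 and 26.1 TPM in KO D7 and at 10.2, 11.7 and 13.1 TPM in KO D14, 1 of 4 members with every D14 library lower (25.7% of all genes).

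**Figure D3:**
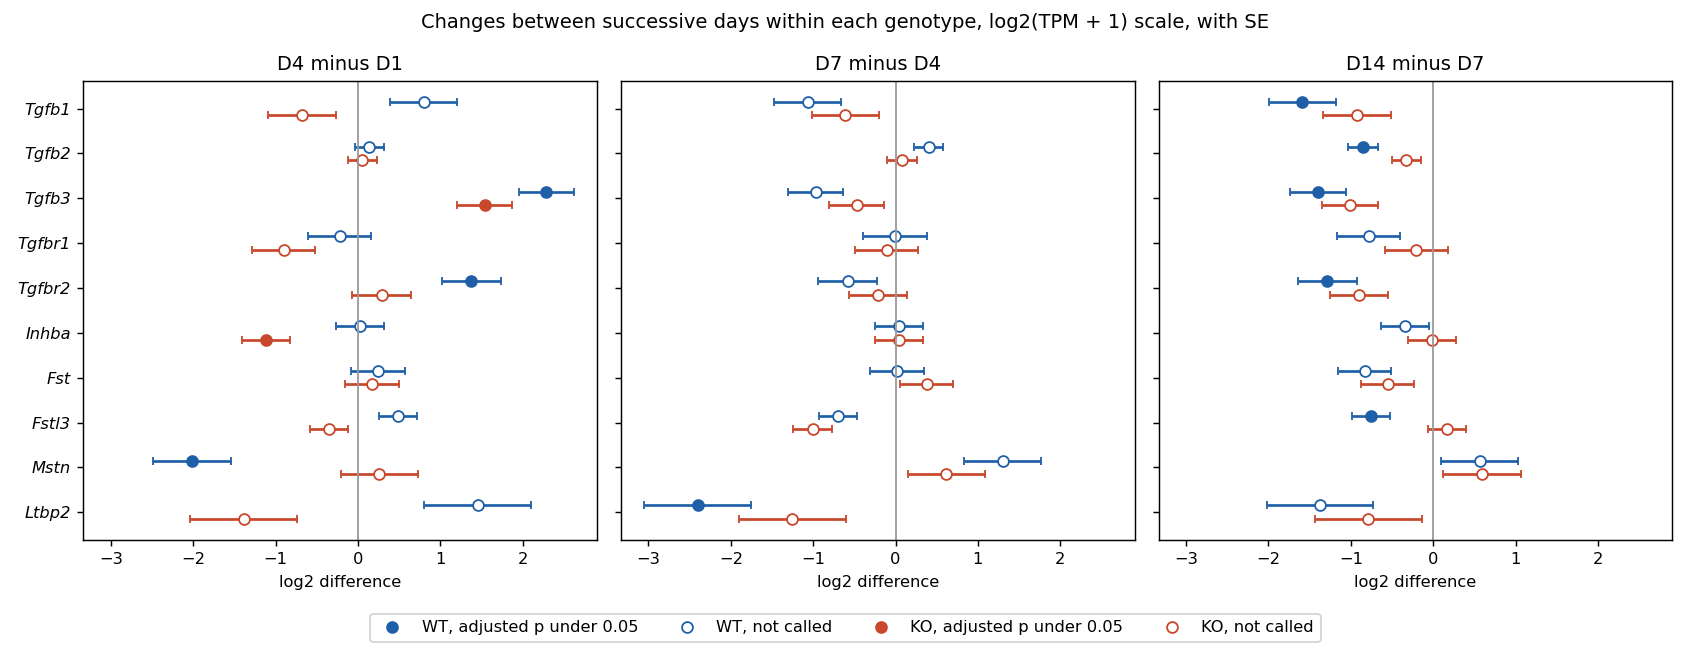
Log2 differences between successive days on the log2(TPM + 1) scale in WT (blue) and KO (red) with bars of 1 SE, filled where the adjusted p was under 0.05. Filled points are Tgfb3 in both genotypes, Tgfbr2 and Mstn in WT and Inhba in KO at the first step, Ltbp2 in WT at the second, and Tgfb1, Tgfb2, Tgfb3, Tgfbr2 and Fstl3 in WT at the third.

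The question of the genotype comparison was whether loss of Gsdme moved these genes. No member was called between KO and WT by limma on any day, and few genes were called at all: 0.00636% of genes on D1 and 0% on each later day. An unadjusted p under 0.05 was reached by 3 of the 10 members on D1 (5.38% of all genes), 3 on D4 (22.7%), 2 on D7 (3.06%) and 0 on D14 (2.06%). Averaged over the days 0 members were called (0.00636% of genes) and 2 had an unadjusted p under 0.05, Tgfb2 and Tgfb3 (3.54% of genes). In the test of whether the KO minus WT difference varied over days, 0 members and 0% of genes were called, and 4 members, Inhba, Fstl3, Mstn and Ltbp2, had an unadjusted p under 0.05 (7.65% of genes), each with an adjusted p of 0.527. A step called in WT alone is therefore not shown to differ between the genotypes.

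On D1, Mstn was at 4.04, 5.42 and 8.94 TPM in KO beside 11.5, 8.10 and 48.4 TPM in WT. The groups overlapped by a single pair of values, and the WT mean rested on replicate 3. The difference was -1.38 (SE 0.47, adjusted p = 0.873), and without WT D1 replicate 3 it was -0.64. Inhba was at 2.74, 1.70 and 1.68 TPM in KO and at 0.91, 1.23 and 0.27 TPM in WT, the 1 member with every KO library higher (3.33% of all genes). Its difference of 0.77 (SE 0.29, adjusted p = 0.873) was 0.54 without that WT library. Fstl3 was at 7.01, 5.20 and 7.68 TPM in KO and at 3.99, 5.27 and 2.80 TPM in WT, with a difference of 0.62 (SE 0.23, adjusted p = 0.873), or 0.43 without it. Of the leukocyte markers 8 of 9 had a higher fitted mean in KO D1, with 2767 to 3987 TPM in sum, and all 5 neutrophil markers tested did (0 called), and their part in these values was not tested.

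On D4, 3 members were lower in every KO library than in every WT library, Tgfb1, Tgfb3 and Ltbp2, where 11.2% of all genes were. Tgfb1 was at 55.4, 16.8 and 47.9 TPM in KO and at 99.7, 60.9 and 57.2 TPM in WT (log2 difference -0.96, SE 0.41, adjusted p = 0.212). Tgfb3 was at 85.0, 23.0 and 59.9 TPM in KO and at 99.8, 86.4 and 93.3 TPM in WT (-0.91, SE 0.34, adjusted p = 0.212). Ltbp2 was at 27.6, 2.24 and 13.3 TPM in KO and at 48.3, 29.1 and 29.7 TPM in WT (-1.70, SE 0.65, adjusted p = 0.212). In all 3 genes KO replicate 2 was lowest by far, and without that library the differences were -0.44, -0.38 and -0.82.

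Mstn went the other way on D4, with 4.26, 9.25 and 9.24 TPM in KO and 3.82, 3.87 and 2.64 TPM in WT. All KO libraries were higher, as in 2.77% of all genes, with a difference of 0.90 (SE 0.47, adjusted p = 0.236) that was 0.74 without KO D4 replicate 2, beside -0.28 for the median gene of that day. All 9 leukocyte and all 8 satellite cell and myoblast markers had a lower fitted mean in KO D4, with a myoblast marker sum of 55.1 to 933.8 TPM against 1149 to 1658 TPM in WT, and all 10 myofibre markers a higher one, none of them called. Their part in the members' values was not tested.

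On D7, Tgfb2 was at 5.26, 4.01 and 5.17 TPM in KO and at 9.10, 8.0 and 7.15 TPM in WT. Every KO library was lower than every WT library. The difference was -0.65 (SE 0.18, adjusted p = 0.776). Tgfb1 and Fstl3 were also lower in every KO library on D7, which made 3 of 10 members where 14.6% of all genes were. In all 3 genes the lowest value was that of KO D7 replicate 2, the library with 395.6 TPM of leukocyte markers, and without it the differences of Tgfb1, Tgfb2 and Fstl3 were -0.26, -0.54 and -0.35. All 9 leukocyte markers (list median -0.69) and all 8 satellite cell and myoblast markers (-0.65) had a lower fitted mean in KO D7, none of them called, and their part in these values was not tested. Fstl3 was at 2.91, 1.30 and 1.86 TPM in KO and at 3.77, 3.07 and 2.95 TPM in WT (-0.53, SE 0.23, adjusted p = 0.776). Averaged over the 4 days, Tgfb2 had a difference of -0.33 (SE 0.09, adjusted p = 0.812) and Tgfb3 one of -0.38 (SE 0.17, adjusted p = 0.861), beside a median of all genes of -0.07.

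On D14 the genotypes lay close. Fstl3 was the 1 member with every KO library higher, at 2.04, 2.68 and 2.29 TPM against 1.5, 1.83 and 1.23 TPM in WT, as in 7.37% of all genes, with an unadjusted p of 0.0936. Tgfb1 had means of 11.7 ± 1.4 TPM (SD, n = 3) in KO and 10.7 ± 3.8 TPM (SD, n = 3) in WT. Mstn had means of 18.5 ± 5.2 TPM (SD, n = 3) in KO and 16.4 ± 8.3 TPM (SD, n = 3) in WT. With SEs between 0.18 and 0.65 on the log2 scale, these data leave room for sizeable differences in either direction.

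**Figure D4:**
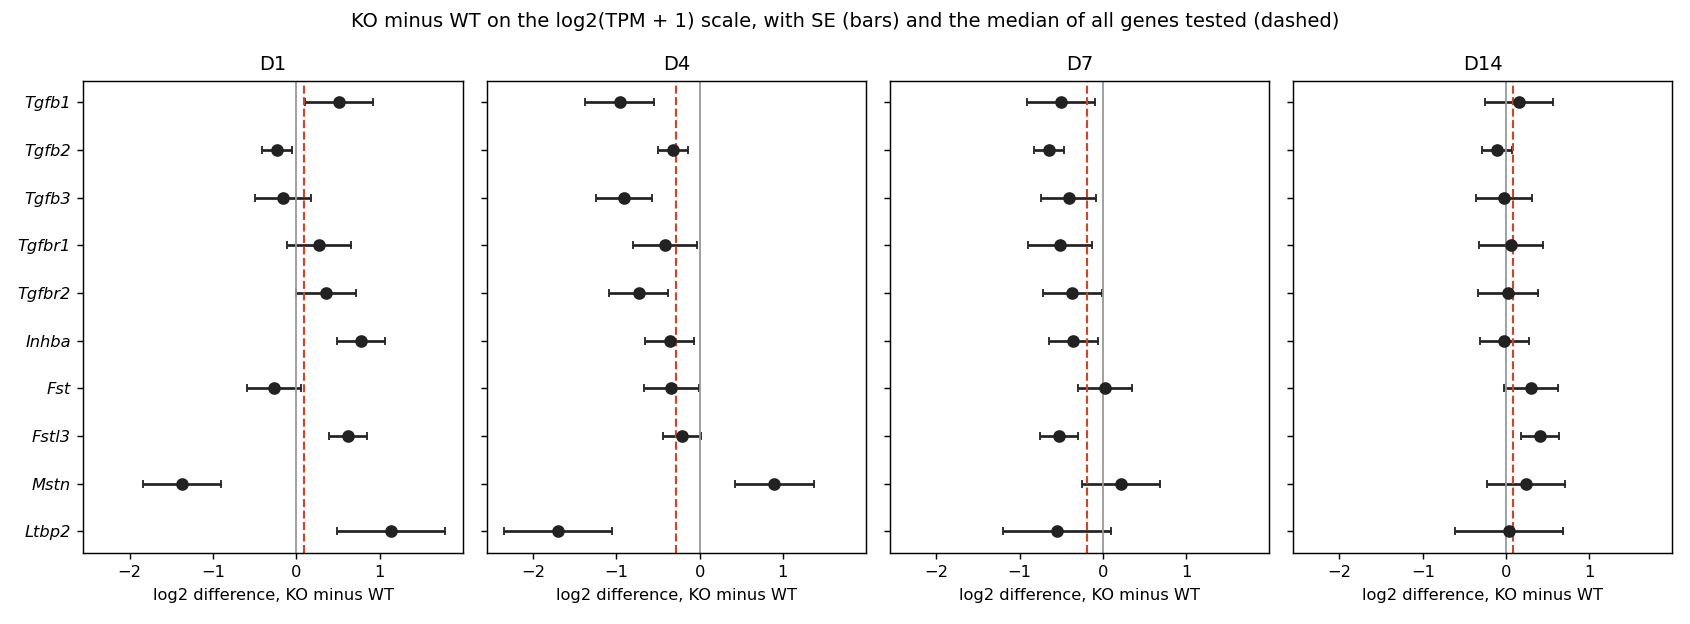
KO minus WT difference of each gene on D1, D4, D7 and D14 on the log2(TPM + 1) scale with bars of 1 SE, and the median of all genes tested as a dashed line (0.09, -0.28, -0.19 and 0.08). No difference had an adjusted p under 0.05, and Mstn on D1 (-1.38) and Ltbp2 on D4 (-1.70) lie farthest below 0.

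Other genes of the pathway were read from 6 lists, which include the members, and counts under median-of-ratios scaling are given where they differ from those on deposited TPM. The list counts stand beside 55.4% of all genes called higher and 5.64% lower on D1 against control, 14.6% higher from D1 to D4 in WT, 30.9% lower from D7 to D14 in WT, and 7.18% higher and 12.2% lower from D1 to D4 in KO. From D1 to D4 in WT 5.27% were called lower, and from D4 to D7 in WT 3.04% higher and 9.31% lower. With the scaling, 1773 of 15718 genes were called higher and 2360 lower from D1 to D4 in KO. No test compares the lists. In the list counts below, higher, lower, rose and fell mean called by limma at an adjusted p under 0.05. Genes not called can have moved the same way. Of 13 tested genes that TGF-beta is known to induce, 10 were called higher on D1 than in control and 0 lower, and all 13 had a higher fitted mean. The list median was 1.91 beside 0.66 for all genes (6 called higher and 1 lower with the scaling, median 1.12). Timp1, an inhibitor of matrix proteases, had a log2 difference of 5.28 (SE 0.54) and Postn, the matrix protein periostin, 2.73 (SE 0.48). In WT, 5 rose from D1 to D4, led by Postn (4.85, SE 1.03) and the collagen genes Col1a1 (3.09, SE 0.55) and Col3a1 (2.64, SE 0.51). Acta2, smooth muscle actin, fell from D4 to D7 (-1.56, SE 0.27), the 1 list gene called at that step. From D7 to D14 9 of 13 were called lower in WT (8 with the scaling), with Postn at -4.12, Timp1 at -3.73 and Col1a1 at -2.60. At that step 0 of the 13 had a higher fitted mean. The KO libraries had 3 of them higher and 4 lower from D1 to D4 (3 and 5 with the scaling), with Timp1 at -2.89 and Tgfbi, a TGF-beta-induced matrix protein, at -2.24.

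Of 15 ligands, the members among them, 13 were tested in the injured libraries. On D1 against control 2 of 12 were called higher, Tgfb1 and the stress-induced Gdf15 (1.95, SE 0.35), and with the scaling another 2 were called lower. On deposited TPM 11 of the 12 had a higher fitted mean. From D7 to D14 in WT 6 of 13 fell, with a list median of -0.64 beside -0.45 for all genes (3 with the scaling, median -0.29). Inha, the inhibin alpha subunit, rose in WT from D1 to D4 (1.5, SE 0.28) and fell from D7 to D14 in WT (-1.19) and in KO (-1.33). Inhbb, the subunit of activin B, fell in KO from D1 to D4 (-1.27, SE 0.31), and Bmp5 rose in WT from D4 to D7 (0.81, SE 0.18), the 1 ligand called there (2 with the scaling). Among receptors and co-receptors 7 of 12 were called higher on D1 than in control, a share near that of all genes, with a list median of 0.63 beside 0.66. All 12 had a higher fitted mean. In WT 2 rose from D1 to D4, 0 were called from D4 to D7 and 5 fell from D7 to D14. With the scaling 1 of the 7, Tgfbr1, stayed called, 2 rose and 3 fell from D1 to D4, 3 rose from D4 to D7, and from D7 to D14 0 fell and 2 rose. In KO 0 receptors were called at any step, and with the scaling 1 fell from D1 to D4 and 1 rose from D7 to D14. Acvr1, a type I receptor of BMPs and activins, had differences of 0.86 and -0.79 in the first and last of these comparisons, which the scaling reduced to 0.14 and -0.24 without a call, and of 0.91 from D1 to D4.

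Latency and activation genes had 8 of 12 higher on D1 than in control (4 higher and 1 lower with the scaling), among them Thbs1, thrombospondin 1, which can activate latent TGF-beta (3.06, SE 0.65), and Nrros, which holds latent TGF-beta on myeloid cells (1.85, SE 0.35). In WT 5 of 14 rose from D1 to D4, with the fibrillin genes Fbn2 (2.70, SE 0.48) and Fbn1 (2.01, SE 0.45) and the protease gene Bmp1 (1.88, SE 0.40), and 7 fell from D7 to D14 (5 with the scaling), with Thbs1 at -2.70, Fbn2 at -1.76 and Fbn1 at -1.70. Ltbp2 was the 1 called from D4 to D7 in WT (2 lower with the scaling). In KO Thbs1 fell from D1 to D4 (-2.53, SE 0.64), the 1 of 14 called, where the scaling called 5 higher and 3 lower. Secreted antagonists had 4 of 8 higher and 1 lower on D1 than in control (2 and 3 with the scaling), led by Vasn (1.73, SE 0.31). From D7 to D14 4 of 9 fell in WT, Vasn (-1.36) and Fstl3 included, none of them called with the scaling. From D4 to D7 in WT 1 rose (2 with the scaling). Nog, the BMP antagonist noggin, fell from D1 to D4 in WT (-0.85) and KO (-1.03), the 1 antagonist called at that step in each genotype (with the scaling another rose in KO).

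Of the Smads and their regulators, 8 of 12 were higher and 1 lower on D1 than in control (3 and 1 with the scaling), with a list median of 0.70 beside 0.66 for all genes. Among them were the repressor genes Tgif1 (1.84, SE 0.29) and Skil (1.70, SE 0.38) and the signal transducer Smad2 (1.24, SE 0.24). Smad1 rose in WT from D1 to D4 (0.74, SE 0.25), and 0 were called from D4 to D7 (1 higher with the scaling). In WT 7 of 12 fell from D7 to D14 (1, Smad1, with the scaling), with Tgif1 at -1.26, Smad1 at -1.19 and Smad2 at -1.02. Tgif1 (-1.51) and Smad7, the inhibitory Smad (-1.13), fell in KO from D1 to D4 (3 genes with the scaling). At the later steps in KO, the scaling called 1 antagonist lower from D4 to D7, and 1 latency gene and 2 induced genes lower from D7 to D14, where deposited TPM called 0 in each. In no list was a gene called between KO and WT on any day. On D4 the list medians for KO minus WT lay between -1.02, for the induced genes, and -0.20, for the secreted antagonists, with -0.28 for all genes.

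The genes whose log2 levels followed each member most closely over the 24 injured libraries are given as a description, since the libraries share days, genotypes and cell make-up. Tgfb1 was nearest to Gltp, Sirpa and Laptm5 (Pearson's r of 0.995, 0.995 and 0.993), of which Sirpa and Laptm5 are known from leukocytes. Tgfb3 was nearest to Armh4, Tmem35a and Laptm4a, and Tgfbr2 to Ptgfrn, Tmem119 and Dpysl3, all at r of 0.980 or more. Mstn was nearest to Ttll7, Setd7 and Rragd (0.919, 0.917 and 0.915). Ltbp2 was nearest to Galns and Akr1b8 (0.979 and 0.978), and Tgfbr1 to Exoc5, Tm9sf3 and Rbm6, each at 0.967. Fstl3 was nearest to Arfgef2, Ssh1 and Adap1 (0.947, 0.941 and 0.936). The likeness was weaker for Fst, with Nectin2, Dapk1 and Tpst1 (0.867, 0.831 and 0.829), Inhba, with Piga, Diaph2 and Usp31 (0.863, 0.860 and 0.859), and Tgfb2, with Chst5, Ebf1 and Gas2 (0.846, 0.838 and 0.821).

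In GENCODE M21 coordinates (GRCm38) Tgfb1 lies on chromosome 7 (25687002 to 25705077), Mstn on chromosome 1 (53061640 to 53068079), Tgfbr1 on chromosome 4 (47353222 to 47414931) and Tgfbr2 on chromosome 9 (116084293 to 116175360), with no other annotated gene overlapping these 4. Tgfb2 (chromosome 1, 186622792 to 186705989), Inhba (chromosome 13, 16011851 to 16031621), Fst (chromosome 13, 114452290 to 114458951), Fstl3 (chromosome 10, 79777272 to 79782630) and Ltbp2 (chromosome 12, 84783212 to 84876532) each share their span with a gene on the other strand. Those partners were at 0.51 TPM or less in every injured library.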

How the data were processed

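Per the labels, 27 mouse muscle samples were profiled by paired-end RNA-seq of total RNA (SMARTER mRNA kit, Illumina). The authors deposited 2 matrices of TPM per gene, the injured matrix (24 libraries) and the control matrix (3 control libraries and the 3 WT D1 libraries again). TPM divides by transcript length and is scaled to a fixed total per library, so a large change in some genes moves the others, and depth per sample is unknown. The build was mm10. Aligner, counting tool and strand setting are not given in the sources used here. Columns of comparisons were not used, and 0 columns were left unmapped.

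Groups and replicate numbers came from the sample titles. Genes at 1 TPM or more in at least 3 libraries of a matrix were kept (15718 and 13041 genes) and log2(TPM + 1) was fitted with limma 3.58.1 (R 4.3.3, trended variances), with all groups of the matrix in 1 model and Benjamini-Hochberg adjustment over all genes kept. A fold change on this scale understates the change of low genes. Groups have 3 libraries each, and nothing says that all came from separate animals. The p-values set each difference against a spread between libraries that limma estimated over all groups of the matrix, not from the groups compared alone. Control muscle was tested against WT D1 only, since the matrices were made separately. WT D1 libraries correlated at 0.997 or more with themselves between the matrices and at 0.985 or less with other libraries, and no 2 libraries of a group were duplicates (at most 0.361% of genes with identical values).

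The members and the lists were chosen with earlier results of these data known. The text names the members, Gsdme, the 3 genes nearest to each member, and at most 3 called genes per list and comparison, those of largest change; some genes that this rule names are not reported here. Marker lists covered leukocytes, neutrophils, fibro-adipogenic progenitors, satellite cells and myoblasts, myofibres, endothelium, pericytes and smooth muscle, tenocytes, adipocytes and Schwann cells. Alternatives were a pseudocount of 0.1, no filter, median-of-ratios scaling, library quality weights, only the groups compared, a replicate block, leaving out each library, and, chosen after seeing the data, leaving out WT D1 replicate 3 and KO D4 replicate 2. The fit was tested on simulated data. Gene positions came from GENCODE M21 and promoters from RefSeq.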

Additional observations from a re-analysis of the deposited data

How the results depend on the processing

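The number of members called was the same or close under most settings. The KO minus WT counts stayed at 0 on every day except with library quality weights on D7. That setting called 2 members, Tgfb2 and Fstl3, among 533 of 15718 genes, where the main fit called 0 genes. Those weights stopped before converging and called up to 10845 genes in a comparison. They called 8 members each at WT D7 minus D4, WT D14 minus D7 and KO D14 minus D7, where 10595, 9503 and 7861 of 15718 genes were called. At KO D7 minus D4 they called 1 member and 278 genes. Median-of-ratios scaling moved the median of all genes on D1 against control from 0.66 to 0.0018. In that comparison it turned Tgfb2 to -0.45, Tgfb3 to -0.60 and Mstn to -0.36. The scaling gave 2 members at WT D7 minus D4 (1846 genes called), 2 at WT D14 minus D7 (2150 genes) and 1 at KO D7 minus D4 (19 genes). Quality weights turned Tgfb2 to -0.14 and Mstn to -0.052 in the injury comparison, and with 1 library left out Mstn lay between -0.38 (without WT D1 replicate 3) and 0.84. Fitting only the groups compared gave 4 members at WT D7 minus D4 (908 genes called) and 0 at KO D4 minus D1 (52 genes). With a replicate block WT D7 minus D4 had 2 members called (1913 genes) and Fstl3 lost its call on D1 against control. The deviations of same-numbered KO and WT libraries correlated between -0.40 and 0.39 over 12 pairs. Those of same-numbered control and WT D1 libraries correlated between 0.0021 and 0.061 over 3 pairs. The numbers were therefore not taken to pair the libraries, although control and D1 muscle may come from the same mice. Leaving out 1 library at a time gave 2 to 5 members at WT D4 minus D1, where 2074 to 3551 of 15718 genes were called. It gave 0 to 2 members at WT D7 minus D4 (210 to 1598 genes) and 0 to 6 at WT D14 minus D7 (286 to 4177 genes). In KO it gave 1 to 3 members at D4 minus D1 (1096 to 3980 genes), 0 to 3 at D7 minus D4 (0 to 1375 genes) and 0 to 1 at D14 minus D7 (10 to 381 genes). Counts of all genes called also moved: between D7 and D14 in WT from 5000 to 2150 with median-of-ratios scaling and to 286 without WT D14 replicate 3, and between D1 and D4 in KO from 3049 to 52 with only the groups compared. The cause of these shifts was not tested. Among the members' log2 differences, 22 results with a library left out and 10 under other settings lost their call with the same direction, and of 97 calls of other list genes 37 were lost with median-of-ratios scaling, 19 of them on D1 against control (4 with the sign turned) and 18 between D7 and D14 in WT, where Acvr1, Vasn, Tgif1 and Smad2 were among them. Depth could not limit any statement by a known amount, and Inhba and Ltbp2 in control muscle lie under 1 TPM.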

Other observations

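The cell type markers not described above moved as follows. Of 4 adipocyte markers all had a higher fitted mean in KO than in WT on D14, with a summed level of 38.6 to 159.7 TPM in KO and 5.59 to 10.8 TPM in WT, and 0 were called. Control muscle had 53.0 to 60.0 TPM of the same markers, and 3 of 3 tested were called lower on D1. Neutrophil markers summed to 2.04 to 4.89 TPM in control, 57.4 to 613.7 TPM in WT D1 and 290.8 to 3462 TPM in KO D1, and 5 of 5 tested were called higher on D1 than in control; none of the 5 was at 1 TPM in every control library and 3 were under it in all, so the filter was passed through the D1 libraries and this count is no support. The 8 fibro-adipogenic progenitor markers, among them Pdgfra, summed to between 1185 and 3173 TPM over all injured libraries and to between 1523 and 1952 TPM in control, with 3 of 8 called higher from D1 to D4 in each genotype (0 in WT and 4 in KO with median-of-ratios scaling). On D1 against control 2 of these 8 were called higher and 0 lower, or 1 and 5 with that scaling. Satellite cell and myoblast markers had 7 of 8 called higher from D1 to D4 in WT and 3 of 8 in KO (7 and 5 with that scaling). Of 5 tenocyte markers 4 were called lower from D7 to D14 in WT, and of 6 endothelial markers also 4 (1 and 0 with that scaling). Pericyte and smooth muscle markers summed to between 116.0 and 242.4 TPM in the injured libraries, and Schwann cell markers to between 52.1 and 945.4 TPM, the highest in KO D4.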
